A study of Mus musculus with 9 samples.

Results

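The SLAM (signalling lymphocytic activation molecule) family is a group of immunoglobulin-like surface receptors of blood cells, and 6 of its genes were followed here: Slamf1, Cd48, Ly9, Cd84, Slamf6 and Slamf7. They were picked by gene symbol, not by their values, from the 46626 gene rows of the deposited table, and all 6 were present. The cells were haematopoietic stem cells (HSCs), the source of all blood lineages, sorted from bone marrow of C57BL/6 mice, with RNA from about 2000 cells behind a library. The 9 libraries formed 3 groups of 3 by their sample titles. The column names of the table, by which values were matched to samples, all end in the same letters, Y-S, in the old and BRL37344 groups too, so they give no second record of the groups. The saline young group came from mice given pumps at 2 months and the saline old group from mice given them at 15 to 20 months, both filled with saline. In the BRL37344 old group, mice of 15 to 20 months received BRL37344, a drug that activates the β3-adrenergic receptor, at 2.4 mg per kg per day. All groups carried subcutaneous osmotic pumps for 12 weeks, with an additional pump implanted after 6 weeks, so the young mice were older than the stated 2 months when cells were taken. The sources used here do not say that replicate libraries were made from different mice, and the p-values therefore reflect only how far the libraries scatter, part of which may be technical. The surface markers of the sort are not given either, and how far the sort itself set the level of Slamf1 or Cd48 was not tested.

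Most SLAM receptors bind another copy of themselves on a neighbouring cell. Their tails recruit the small adaptors SAP and EAT-2, which couple them to Src-family kinases, or, in the absence of these adaptors, phosphatases such as SHP-1 and SHIP-1. CD48 differs in being held in the membrane by a lipid anchor and in binding CD244 and CD2 on other cells. In mouse bone marrow, CD150, the product of Slamf1, marks HSCs and is lost from many of their multipotent progeny, while CD48 is low on HSCs and gained by progenitors, so that the pair is widely used to separate these cells.

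The 6 genes lie close together on chromosome 1, in 364.5 kb of the GRCm38 build (positions 171588624 to 171953170, GENCODE annotation). The only other protein-coding gene that lies wholly within this span is Gm10521. From low to high coordinate the order is Ly9, Slamf7, Cd48, Slamf1, Cd84 and Slamf6. Ly9 and Slamf7 are on the minus strand and the others on the plus strand. Cd48 spans 171682009 to 171705258 and Slamf1 spans 171767127 to 171801184, and their starts are 85.1 kb apart. Ly9 (171588624 to 171607410) overlaps Cd244a on the opposite strand. The strand setting of the authors' counting is not given in the sources used here, so reads of Ly9 and of Cd244, the table's name for that gene, may not have been told apart. Slamf7 and Slamf6 each overlap a non-coding gene on the opposite strand, Gm37787 and Gm37065. On the same strand, Cd48 overlaps Gm37010 and Slamf7 overlaps Mir7683. How reads in such overlaps were counted is not given either.

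The promoters of the 3 most abundant members are shown because the genes are neighbours with unlike levels. Each sequence is the 250 bases before the RefSeq start (GRCm38.p6, plus strand). Capitals mark TGTGGT, a core motif of RUNX factors, which act throughout blood formation.
Slamf1, chr1:171766882-171767131: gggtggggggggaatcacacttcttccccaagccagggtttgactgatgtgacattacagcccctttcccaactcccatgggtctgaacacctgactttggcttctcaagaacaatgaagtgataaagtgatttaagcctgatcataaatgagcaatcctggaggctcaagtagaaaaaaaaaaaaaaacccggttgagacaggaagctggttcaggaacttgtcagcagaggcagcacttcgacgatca
Cd48, chr1:171681742-171681991: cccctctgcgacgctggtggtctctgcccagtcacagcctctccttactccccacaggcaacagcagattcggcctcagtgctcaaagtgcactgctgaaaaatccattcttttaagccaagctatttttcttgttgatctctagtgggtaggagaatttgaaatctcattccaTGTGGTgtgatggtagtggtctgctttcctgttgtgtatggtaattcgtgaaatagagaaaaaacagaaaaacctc
Cd84, chr1:171839447-171839696: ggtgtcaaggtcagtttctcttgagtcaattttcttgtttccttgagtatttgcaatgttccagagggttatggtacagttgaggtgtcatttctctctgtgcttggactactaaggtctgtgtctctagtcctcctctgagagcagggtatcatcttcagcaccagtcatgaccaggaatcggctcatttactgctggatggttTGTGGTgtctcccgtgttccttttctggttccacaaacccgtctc
Windows were available for 5 of the 6 genes, without Ly9. Searched on both strands, TGTGGT occurred 76 bases before the start of Cd48 and 45 bases before that of Cd84, and in none of the Slamf1, Slamf6 and Slamf7 windows. It occurred in 14.0% of the 32851 windows of this length in the RefSeq promoter table. The GATA motif AGATAA (9.99% of windows), the ETS motif GGAAGT (19.7%) and the cAMP response element core TGACG (17.8%) were found in none of the 5. Only these exact letters were searched. Variants that differ by a letter, such as tgataa and ggaagc in the Slamf1 window, were not counted. No searched motif overlapped another. These letters alone do not show binding or its absence.

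The levels of the family in HSCs fell into an upper and a lower tier. Values are RPKM, reads scaled to transcript length and to library depth, which allow a comparison between genes. Cd84 was highest in each library, between 56.7 and 78.8 RPKM, followed by Slamf1 (13.9 to 41.6) and Cd48 (2.27 to 22.8). Ly9 stood between 0.912 and 5.21 RPKM, Slamf6 at up to 1.58 and Slamf7 at up to 1.58. Neighbours in this order were not always apart. Slamf1 and Cd48 overlapped in saline young, Cd48 and Ly9 overlapped in saline old, and Ly9 and Slamf6 overlapped in saline young and BRL37344 old. The summed level of the family was close between groups, with 104 ± 9.58 RPKM for saline young, 111 ± 3.20 for saline old and 109 ± 10.1 for the BRL37344 old group (SD, n = 3). Its makeup was less alike. Cd48 gave 18.5 ± 4.15% of the sum in saline young, 3.41 ± 2.03% in saline old and 8.08 ± 0.679% after BRL37344, and Slamf1 gave 18.7 ± 3.53%, 32.8 ± 4.88% and 21.3 ± 7.21% (SD, n = 3).

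**Figure D1:**
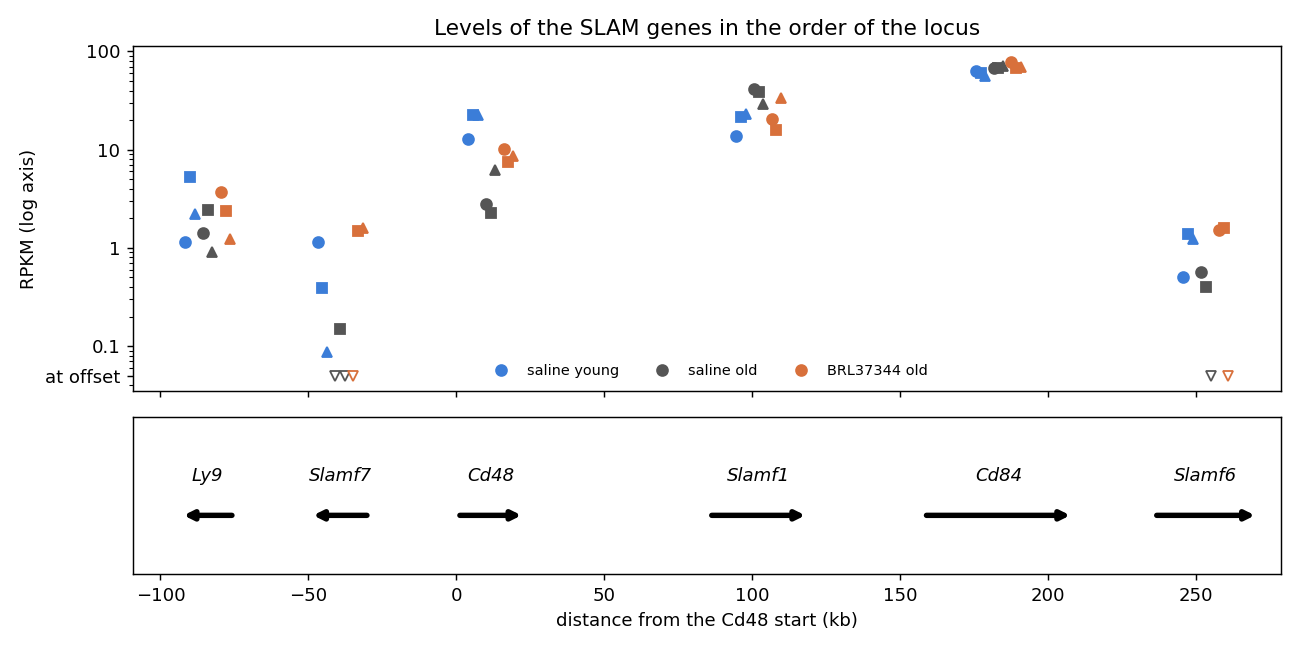
The upper panel gives RPKM (log axis) of each gene in each library, placed at the gene's position, and the lower panel the extent and direction of the genes in kb from the Cd48 start. Circles, squares and triangles are replicates 1, 2 and 3, and open downward triangles are values at the table's offset, drawn at a fixed height. Cd84, Slamf1 and Cd48 form the upper tier and Ly9, Slamf6 and Slamf7 the lower.

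Cd48 had the largest log2 change of the 6 genes with age, and it fell. In saline young it stood at 12.8, 22.8 and 22.7 RPKM in replicates 1, 2 and 3, and in saline old at 2.80, 2.27 and 6.20. No old library reached the lowest young one. The saline old mean was 0.193 of the saline young mean (3.76 ± 2.13 against 19.4 ± 5.73 RPKM, SD, n = 3), and the log2 change was -2.29 ± 0.35 SE, with a 95% interval from -3.06 to -1.52 (limma adjusted p = 0.00957). Log2 changes are of RPKM plus 0.5, which understates changes of low genes. Cd48 was the only member of the 6 to pass over all genes tested, where 1.58% of 13516 genes were called at an adjusted p of at most 0.05, 0.4% lower and 1.18% higher, and 15% had an unadjusted p under 0.05. The age groups did not overlap for 20.3% of genes, with saline old the lower for 10.9%. The call did not hold without saline young replicate 2 (log2 change -2.16, limma adjusted p = 0.0555) or without both libraries highest in neutrophil markers, saline young replicate 3 and BRL37344 old replicate 2 (-2.16, limma adjusted p = 0.0920). In such bulk libraries, fewer cells that carry a transcript and less of it per cell cannot be told apart.

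In the HSCs of BRL37344 old mice, Cd48 stood at 10.2, 7.54 and 8.72 RPKM, above each saline old library and below each saline young one. The saline old and BRL37344 old means were 3.76 ± 2.13 and 8.81 ± 1.33 RPKM (SD, n = 3), a log2 difference of 1.23 ± 0.35 SE with a 95% interval from 0.46 to 2.00. It did not pass (limma unadjusted p = 0.00502, adjusted p = 0.839). In this comparison 0 of 13516 genes passed in limma, and 5.64% had an unadjusted p under 0.05. The groups did not overlap for 10.1% of genes, and BRL37344 old was the higher for 4.82% and the lower for 5.28%. Against saline young the log2 difference was -1.06 ± 0.35 SE (95% interval -1.83 to -0.29, limma adjusted p = 0.312), where 0.769% of genes were called, 0.074% lower and 0.695% higher, and 9.38% had an unadjusted p under 0.05. In that comparison the groups did not overlap for 15.2% of genes, 7.88% lower and 7.29% higher. The order of saline young, then BRL37344 old, then saline old with no overlap was looked for after these values were seen, and 40 of 13516 genes (0.296%) had it. These comparisons share libraries, so they are not independent of each other.

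**Figure D2:**
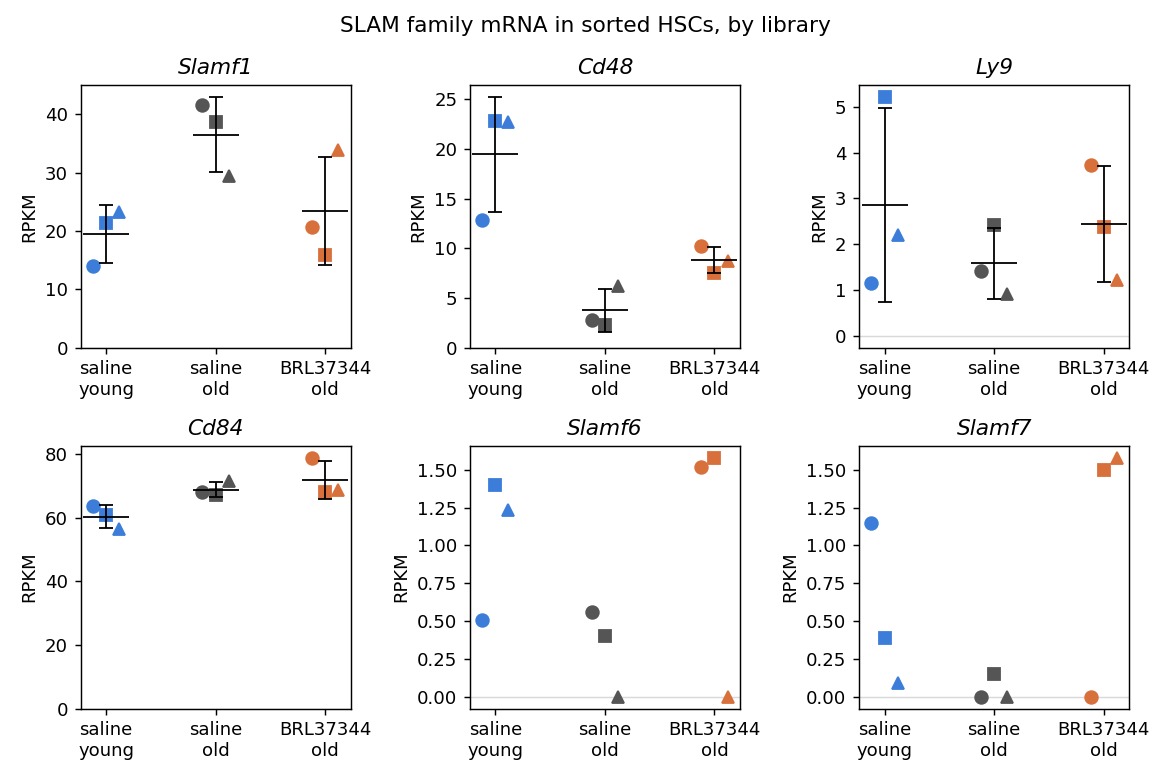
RPKM of each member by group, with circles, squares and triangles for replicates 1, 2 and 3 and, except for Slamf6 and Slamf7, the mean and SD of 3 libraries as black lines. The Cd48 groups lie apart from each other, with BRL37344 old at 7.54 to 10.2 RPKM between saline old and saline young, while the BRL37344 old values of Slamf1 spread from 15.9 to 33.8 RPKM.

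Slamf1 had the opposite order between age groups. It stood at 13.9, 21.4 and 23.3 RPKM in saline young and at 41.6, 38.6 and 29.4 in saline old. Each old library was above each young one, a property of 9.39% of all genes tested. The log2 change was 0.90 ± 0.28 SE with a 95% interval from 0.28 to 1.53, and it did not pass over all genes (limma unadjusted p = 0.00933, adjusted p = 0.173). It passed with sample quality weights, which count libraries with more scatter less (log2 change 0.84, limma adjusted p = 0.0388). In BRL37344 old the values were 20.7, 15.9 and 33.8 RPKM. Replicates 1 and 2 lay within the saline young range, and replicate 3 within the saline old range. The log2 difference was -0.68 ± 0.28 SE from saline old (95% interval -1.31 to -0.05, limma adjusted p = 0.839) and 0.22 ± 0.28 SE from saline young (-0.41 to 0.85, limma adjusted p = 0.860). Without BRL37344 old replicate 3 the difference from saline old was -0.97 (limma adjusted p = 0.181), and that from saline young turned to -0.072 (limma adjusted p = 0.940).

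The ratio of Slamf1 to Cd48 set the groups apart more than Slamf1 alone, while Cd48 alone already left them without overlap. In saline young it was 1.09, 0.940 and 1.03 in replicates 1, 2 and 3, so that both transcripts were about equal per length. In saline old it was 14.8, 17.0 and 4.74, and in BRL37344 old 2.03, 2.11 and 3.88. The group means were 1.02 ± 0.0744, 12.2 ± 6.55 and 2.67 ± 1.05 (SD, n = 3). No library of one group fell in the range of another, which also held for Cd48, the denominator. How often ratios of other genes do so was not counted. The lowest saline old ratio and the highest BRL37344 old ratio belong to libraries labelled replicate 3 and are the nearest pair. The ratio is given as a description with no test, since it was chosen with the values known.

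**Figure D3:**
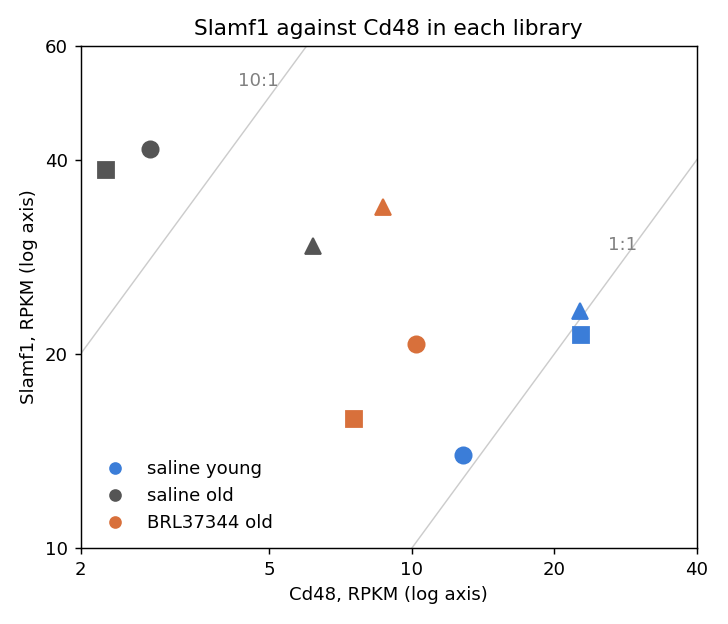
Slamf1 against Cd48 in each library, both in RPKM on log axes, with circles, squares and triangles for replicates 1, 2 and 3 and grey lines at equal levels and at a ratio of 10. Saline young libraries lie along the line of equal levels, with ratios of 0.940 to 1.09, and saline old libraries have ratios of 4.74 to 17.0.

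Markers of multipotent and committed progenitors had the directions of Cd48, without passing the test. Of the 10 tested markers other than Cd48, all 10 had a negative log2 change in saline old against saline young and all 10 a positive one in BRL37344 old against saline old, with medians of -0.94 and 0.96 where all genes had medians of -0.022 and 0.0058. None passed in limma in any of the comparisons, and both medians share the saline old libraries. Their summed level ranged from 440 to 1471 RPKM in the saline young libraries, from 302 to 332 in the saline old ones and from 310 to 840 after BRL37344. Much of the highest sums was Mpo and Elane. These stood at 405 and 614 RPKM in saline young replicate 3 and at 142 and 206 in BRL37344 old replicate 2. Both libraries are also the highest in neutrophil markers. Cd34, a sialomucin of progenitors that the most dormant mouse HSCs lack, stood at 268, 272 and 242 RPKM in saline young, 181, 187 and 191 in saline old and 315, 247 and 185 in BRL37344 old. Flt3, a cytokine receptor of multipotent and lymphoid progenitors, stood at 34.2, 27.4 and 30.1 RPKM in saline young, 28.6, 21.5 and 10.1 in saline old and 78.7, 54.7 and 14.3 in BRL37344 old. BRL37344 old replicate 3 was thus the lowest of its group in both, and the highest in Slamf1, but not the lowest in Cd48. Other members of the list differed. For Mpo, Elane and Ctsg, replicate 1 was the lowest of that group, at 3.27, 2.34 and 0.311 RPKM. Replicate 3 stood at 7.11, 7.74 and 2.33 RPKM. The part of progenitors in the Cd48 and Slamf1 values was not tested.

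BRL37344 old replicates 1 and 2 were below the other 7 libraries in mitosis genes, a list added after the values were seen. The 12 genes summed to 114, 113 and 373 RPKM in replicates 1, 2 and 3 of that group, while the sums ranged from 300 to 424 over the saline old libraries and from 305 to 345 over the saline young ones. Markers of neutrophils, led by S100a8 and S100a9, summed to 1056, 1607 and 18597 RPKM in saline young and to 178, 5417 and 1837 after BRL37344, while the saline old sums ranged from 680 to 905. None of the 10 was at the offset throughout. All 10 were negative with age, with a median log2 change of -1.91, and 8 of 10 were positive in BRL37344 old against saline old, with a median of 0.61. Of the monocyte and macrophage markers all 10 were negative with age (median -1.16) and 9 of 10 positive in BRL37344 old against saline old (median 0.40), and their sums ranged from 77.2 to 361 RPKM in saline young, from 44.4 to 80.4 in saline old and from 33.2 to 169 after BRL37344. No marker of either list passed in limma in these comparisons, which share the saline old libraries. Both lists thus had, for most members, the directions of Cd48. Within saline young, Cd48 was 12.8, 22.8 and 22.7 RPKM in replicates 1, 2 and 3, where the neutrophil sum was 1056, 1607 and 18597. Within BRL37344 old it was 10.2, 7.54 and 8.72 RPKM, where the sum was 178, 5417 and 1837. The part of these cells in the results was not tested.

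Markers of megakaryocytes and of endothelium were higher with age as sums, like Slamf1. The megakaryocyte sum ranged from 243 to 378 RPKM in saline young, from 485 to 732 in saline old and from 349 to 816 after BRL37344, and the endothelial sum from 73.3 to 103, from 189 to 226 and from 91.4 to 165. Not all members had this direction. With age 7 of 8 tested megakaryocyte markers were positive and 1 negative, from -0.85 to 1.95 in log2 change. Of 4 tested endothelial markers 2 were positive and 2 negative, from -0.39 to 3.37. Each list had 2 members called, both higher, where 1.18% of all genes tested were called higher. In BRL37344 old against saline old, 7 of 8 megakaryocyte markers (median -0.35) and all 4 endothelial ones (median -0.44) were negative. None passed in limma there, and both comparisons share the saline old libraries. In saline old against saline young, Vwf, a clotting factor gene on both lists, rose by a log2 change of 1.94 ± 0.34 SE (limma adjusted p = 0.0211), Itgb3, an integrin chain of platelets, by 1.95 ± 0.19 (adjusted p = 0.000643), and Cldn5, a tight junction gene, by 3.37 ± 0.33 (adjusted p = 0.000643). Of 4 tested T and NK cell markers 2 were positive and 2 negative with age, from -1.94 to 1.71, and Klrb1c, a receptor of NK cells, rose by 1.71 ± 0.35 (limma adjusted p = 0.0417). After BRL37344, Vwf stood at 69.7, 42.1 and 100 RPKM, highest in replicate 3 as Slamf1 was. The part of these cell types was not tested.

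**Figure D4:**
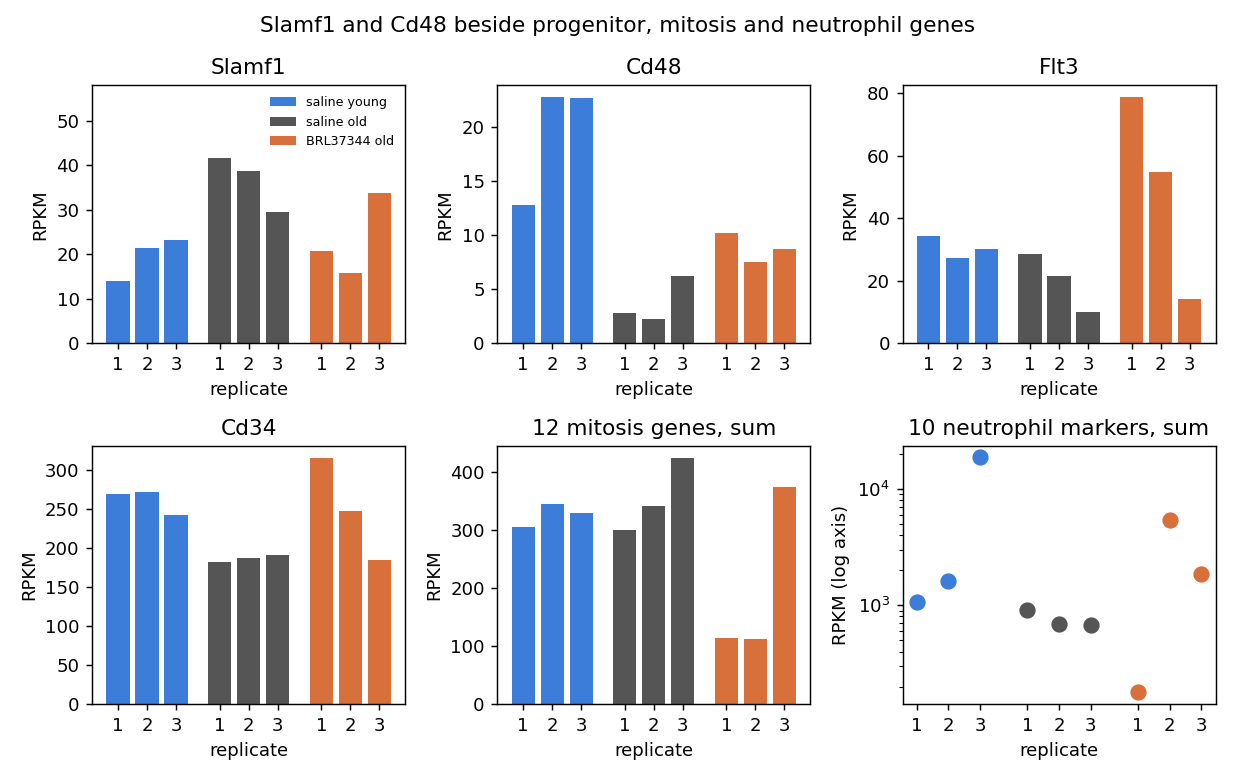
Slamf1, Cd48, the progenitor genes Flt3 and Cd34, and the sums of 12 mitosis genes and of 10 neutrophil markers in each library, in RPKM (bars from 0; the neutrophil panel has a log axis and points). In BRL37344 old, replicate 3 has the highest Slamf1 (33.8), the lowest Flt3 (14.3) and the highest mitosis sum (373).

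Cd84, a self-binding receptor of myeloid, megakaryocytic and lymphoid cells, was the most even member. It stood at 63.8, 60.9 and 56.7 RPKM in saline young, 68.1, 67.1 and 71.5 in saline old and 78.8, 68.3 and 68.9 in BRL37344 old. Its coefficient of variation over the 9 libraries was 9.44%, against 37.1% for Slamf1, 61.2% for Ly9 and 71.3% for Cd48. Each library of both old groups was above each young one, by a small margin. Of all genes tested, 9.39% had this in saline old and 7.29% in BRL37344 old. The log2 differences from saline young were 0.19 ± 0.10 SE for saline old (95% interval -0.04 to 0.42, limma adjusted p = 0.425) and 0.25 ± 0.10 SE for BRL37344 old (0.02 to 0.48, limma adjusted p = 0.475). BRL37344 old differed from saline old by 0.06 ± 0.10 SE (-0.17 to 0.29, limma adjusted p = 0.934).

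No gene of the lower tier passed the test in any comparison. Ly9, a self-binding receptor best known from lymphocytes, stood at 1.16, 5.21 and 2.19 RPKM in saline young, 1.41, 2.42 and 0.912 in saline old and 3.73, 2.37 and 1.23 in BRL37344 old. The groups overlapped in each comparison, and the log2 change with age was -0.56 ± 0.50 SE (95% interval -1.68 to 0.55, limma adjusted p = 0.660). The overlapping gene Cd244, the receptor for CD48, stood between 1.30 and 3.15 RPKM over all libraries.

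Slamf6, a receptor of T, NK and B cells, was listed at 0.507, 1.40 and 1.24 RPKM in saline young, at 0.563 and 0.402 in saline old replicates 1 and 2, and at 1.52 and 1.58 in BRL37344 old replicates 1 and 2. In replicate 3 of both old groups it was at the offset of the table, the value given to a gene with no reads. These are the deepest libraries of the series, at 41.4 and 44.9 M reads by the steps of the values. The log2 change was -0.93 ± 0.59 SE between saline old and saline young and 0.71 ± 0.59 SE between BRL37344 old and saline old, with limma adjusted p of 0.504 and 0.872. Slamf6 and Ly9 had the highest correlation of any pair of members over the 9 libraries, with a Pearson r of 0.79 on the log2 scale, a description in which group differences and scatter are both contained.

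Slamf7, a receptor of plasma cells, NK cells and activated macrophages, stood at 1.15, 0.391 and 0.0877 RPKM in saline young and at 0.149 in saline old replicate 2, with replicates 1 and 3 at the offset. In BRL37344 old it was at the offset in replicate 1 and at 1.498 and 1.58 RPKM in replicates 2 and 3. Slamf7 reached 1 RPKM in 3 libraries, the fewest that the filter on low values allowed. The log2 differences of 1.23 ± 0.61 SE between BRL37344 old and saline old and of -0.80 ± 0.61 SE between saline old and saline young did not pass (limma adjusted p = 0.839 and 0.598). Jchain, a transcript of antibody-secreting plasma cells, was at 263 RPKM in both saline young replicate 2 and BRL37344 old replicate 2 and at most 16.3 RPKM in the other libraries. In these replicates Slamf7 stood at 0.391 and 1.498 RPKM. The part of plasma cells in the Slamf7 values was not tested.

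**Figure D5:**
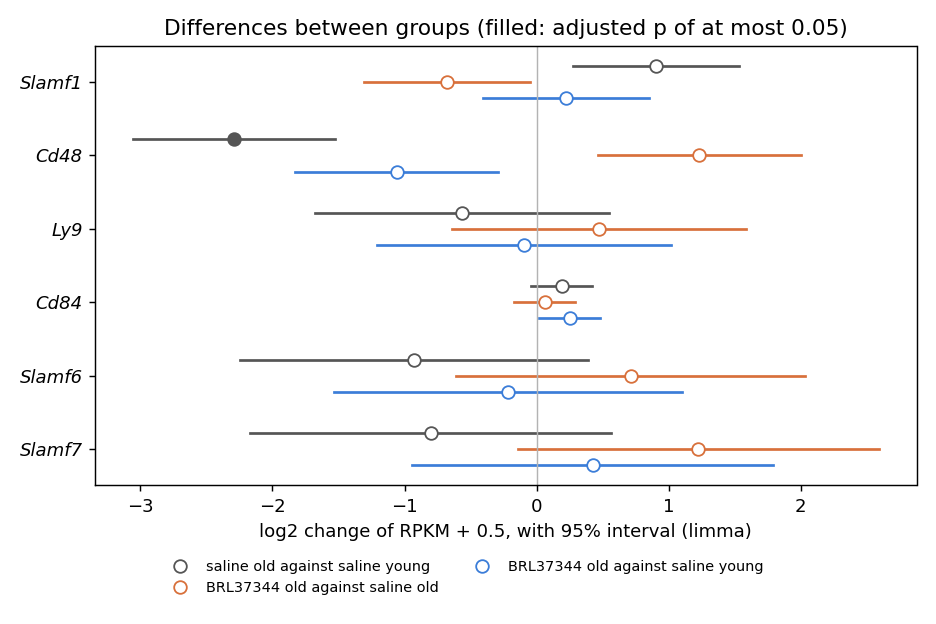
Log2 change of RPKM plus 0.5 for each member in the 3 comparisons, with 95% intervals from limma. The filled point is the only difference that passed over all genes, Cd48 in saline old against saline young at -2.29. The intervals of Cd84 are the narrowest, and those of Slamf6 and Slamf7 the widest.

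The other parts of the pathway were measured beside the receptors. Of the relatives and ligands, Slamf8, a receptor of myeloid cells, stood between 2.53 and 6.70 RPKM, and with Cd244 made 2 tested genes of 4 in the table, of which none passed. Cd2, a partner of CD48 in the mouse, did not exceed 0.537 RPKM. The SAP gene Sh2d1a was above the offset in 1 library only, BRL37344 old replicate 2, at 0.654 RPKM. Of the EAT-2 genes, Sh2d1b1 did not exceed 0.634 RPKM and Sh2d1b2 was at the offset in all 9 libraries. The phosphatase genes Ptpn6 (SHP-1) and Inpp5d (SHIP-1) were high, at 151 to 207 and 82.2 to 118 RPKM, and Fyn, the kinase that SAP recruits, spread from 1.95 to 17.9 RPKM. In the list of adaptors and signalling genes, 0 of 20 tested genes passed in limma in any comparison. With age 17 of the 20 were negative, with a median log2 change of -0.24 where all genes had -0.022, and 17 were positive in BRL37344 old against saline old, with a median of 0.16 where all genes had 0.0058. The smallest p with age were those of Cbl, a ubiquitin ligase, at 5.39, 5.34 and 5.28 RPKM in saline young and 3.28, 2.89 and 2.41 in saline old (limma adjusted p = 0.157), of Src (adjusted p = 0.203), of Dok1 (0.287) and of Inpp5b (0.298). These 2 comparisons share the saline old libraries, so the opposite directions are not independent.

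Around the family on chromosome 1, none of 22 tested neighbouring genes passed in limma in any comparison. With age 11 were positive and 11 negative, with a median log2 change of -0.011. Among those with the smallest p, Fcer1g, the signalling chain of Fc receptors, stood at 111, 95.8 and 163 RPKM in saline young and 58.6, 54.7 and 67.6 in saline old (limma adjusted p = 0.0641). F11r, a junctional adhesion molecule, stood at 100, 91.5 and 80.8 and at 108, 107 and 114 RPKM (limma adjusted p = 0.253).

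Genes were also ranked by the likeness of their pattern to Slamf1 and Cd48, by Pearson r of log2 values over the 9 libraries among the 7136 genes whose log2 level averaged 3 or more. The libraries share their groups and their depth differences, so r is a description only. Among the genes most like Slamf1 were the mitotic regulator Fbxo5 (r = 0.93) and Mtx1 (0.92), and least like it were Rasa3 (-0.97), Samhd1 (-0.97) and Tmem229b (-0.97). Rasa3, a brake on Ras signalling, stood at 96.4 ± 6.16, 81.2 ± 1.68 and 91.0 ± 11.3 RPKM in saline young, saline old and BRL37344 old (SD, n = 3). Most like Cd48 were the glutamine transporter gene Slc38a1 (0.95), the tyrosine kinase gene Syk (0.95) and the nucleoside transporter gene Slc28a2 (0.93), and least like it were the adhesion molecule gene Alcam, Med4 and Casp12 (each -0.94). Syk stood at 29.5 ± 0.386, 18.2 ± 2.91 and 22.8 ± 0.885 RPKM and Alcam at 10.4 ± 3.30, 24.3 ± 3.74 and 16.4 ± 1.35 RPKM in the same order (SD, n = 3).

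Markers of HSCs were read beside those of other cells. All 13 HSC markers in the list reached 1 RPKM in at least 1 library, led by Pdzk1ip1 and Ly6a. So did all 10 neutrophil, 10 monocyte and macrophage, 8 megakaryocyte and 6 erythroid markers. Reaching 1 RPKM therefore does not test the label of the cells. The HSC markers summed to between 1410 and 1698 RPKM in saline young, between 1451 and 1724 in saline old and between 1347 and 2082 after BRL37344. With age 8 of the 13 were positive and 5 negative (median log2 change 0.14), and none passed in limma in any comparison. In BRL37344 old against saline old 8 were also positive and 5 negative (median 0.034). Hlf, with the smallest p with age among them, had the directions of Cd48. It stood at 147, 106 and 128 RPKM in saline young and at 106, 54.0 and 49.4 in saline old (limma adjusted p = 0.183). In BRL37344 old it was 107, 166 and 91.2 RPKM. The neutrophil sum given above reached 18597 RPKM, in saline young replicate 3. Depths implied by the steps of the values ranged from 12.2 to 44.9 M reads over the 9 libraries. Low values rest on fewer reads in the shallow libraries. Markers of other blood cells were present as sums over all libraries, at 39.4 to 68.3 RPKM for B cells, 107 to 252 for T and NK cells, 123 to 463 for plasma cells, 15.4 to 112 for erythroid cells and 5.08 to 28.0 for mast cells and basophils. No marker of these lists other than Klrb1c passed in limma in any comparison. Of defining genes, Pax5 of B cells stayed at the offset throughout, while Cd3e of T cells was above the offset in BRL37344 old replicates 2 and 3 only, at 1.64 and 0.359 RPKM.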

How the data were processed

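RNA of 9 libraries of sorted HSCs was amplified with the SMART-Seq v4 kit and indexed with Nextera XT, per the labels' protocols. Among tools, STAR 2.5.3a, Partek and Trim Galore are listed in the submitters' processing notes, beside the mm10 build, with no role or order. The values deposited by the authors were read as RPKM from the values themselves, since they are not whole and step with gene length, and FPKM could not be told apart from RPKM. Each carries a small offset in place of 0. Implied depths came from those steps in 7470 genes with 1 annotated transcript of at least 1000 bases, with lengths reduced by 200. Of the values worth at most 10 reads, 75.4% to 78.4% in a library came within 0.05 of a whole number. Depth is known only in this way, so no counts were rebuilt and no counting intervals are given.

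Of 46628 rows, 2 named no gene. Genes that reached 1 RPKM in at least 3 libraries, 13516, were tested on log2(RPKM + 0.5). The test was limma 3.58.1 (R 4.3.3), with robust moderation along a trend in the variance, 1 mean per group and all 9 libraries in the model, and Benjamini-Hochberg adjustment over all genes tested at a threshold of 0.05. The fit was tested on simulated data. The members, lists and tests were chosen with earlier results of these data known. Named beyond the 6 members were called genes of the pathway and neighbour lists, up to 4 with the smallest p in saline old against saline young, the highest and the lowest marker genes, and the 3 genes most and least like Slamf1 and Cd48, of which 1 is not reported here. Flt3, Fyn, Inpp5d, Ptpn6, Sh2d1a, Sh2d1b1, Cd2, Jchain, Pax5 and Cd3e were named for their roles after their values were seen. Mpo, Elane and Ctsg were also named after their values were seen. No gene of the pathway and neighbour lists was called. Itgb3, Cldn5 and Klrb1c were named because they were called on marker lists, and Hlf for its p with age. Alternatives were other pseudocounts, filters and scalings, sample quality weights, a block for the replicate number, a fit to the 2 groups of a comparison alone, and libraries left out. A list of mitosis genes was added after the values were seen.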

Additional observations from a re-analysis of the deposited data

How the results depend on the processing

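Over the 6 members and 3 comparisons, 323 of 333 alternative values kept the direction and the side of the threshold of limma's adjusted p. For saline old against saline young, Cd48 lost its call in the alternatives given above, which left 0 members called where 1 was called otherwise, and leaving out each library in turn gave 0 to 1. Sample quality weights gave 2 members, with Slamf1 added. The count of genes called there was 213, and 127 with no filter on low values, 1284 with sample quality weights (516 higher and 768 lower, against 159 and 54), 82 without both libraries highest in neutrophil markers, and 96 to 586 with each library left out. For BRL37344 old against saline old it was 0, and 1 with a pseudocount of 0.1 RPKM, 3 with sample quality weights, 2 with only the groups compared, and 0 to 39 with each library left out, with no member among them. For BRL37344 old against saline young it was 104, and 169 with sample quality weights, 42 without both libraries highest in neutrophil markers, and 57 to 163 with each library left out, again with no member.

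Directions turned only for differences that did not pass. For BRL37344 old against saline young, Slamf1 was at -0.029 with sample quality weights and between -0.072 and 0.46 with each library left out, Slamf7 was at -0.25 without both libraries highest in neutrophil markers, and Ly9 ranged from -0.51 to 0.38 and Slamf6 from -0.57 to 0.46 with each library left out. Cd84 in BRL37344 old against saline old ranged from -0.0054 to 0.097. The cause was not tested. With the replicate number as a block, the counts of genes called were 174, 0 and 92 and Cd48 kept its call with age (limma adjusted p = 0.0174), and no other call on a member changed. Of 9 pairs of libraries with equal numbers, 2 had a correlation of their deviations over 0.1, in a range from -0.052 to 0.19. Pairs with unequal numbers reached 0.13. So few low correlations cannot tell whether the numbers pair the libraries.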
